A study of Caenorhabditis elegans with 6 samples.

Results

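The genes described here encode 8 chromatin regulators that act in or on the C. elegans germline: mes-2, mes-3, mes-4, mes-6, mrg-1, met-1, set-2 and spr-5. They were taken by gene name from a table of 20422 genes, where all 8 were found and all 8 had an adjusted p. The RNA came from sterile whole adults of strain SS0415, which carries mes-1(bn84ts) on chromosome X, and strain SS1224, which carries both mes-1(bn84ts) and, on chromosome III, daf-2(e1370), with 3 samples of 100 worms each. The daf-2; mes-1 worms are called double mutants here. Both genotypes therefore carry the temperature-sensitive mes-1 allele that leaves adults without a germline, and they differ in daf-2, the insulin/IGF-1 receptor gene. Worms hatched from eggs laid at 24°C, were kept at 15°C from day 1 so that the daf-2 mutants would not become dauer larvae, were returned to 24°C on day 5, and were picked on day 6 as adults with no visible embryos. Per the labels, the return to 24°C was chosen because germline genes are expressed more strongly outside the germline in warmer worms. Each genotype is a single strain, and nothing says whether the numbered samples came from separate cultures, so p-values here describe how far these samples scatter, and that scatter may be technical in origin.

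MES-2, MES-3 and MES-6 form the worm Polycomb repressive complex 2, which methylates histone H3 at the lysine known as H3K27 and represses genes, in the germline above all on the X chromosome. MES-4 and MET-1 methylate H3K36, another lysine of that histone. MET-1 does so along genes that are being transcribed, whereas MES-4 maintains the mark on genes that were expressed in the parental germline and so passes it to the next generation. MRG-1 is a chromodomain protein related to human MRG15, a family that binds methylated H3K36. SET-2 is the catalytic subunit of the SET1/COMPASS complex, which methylates H3K4, and SPR-5 is the worm counterpart of the H3K4 demethylase LSD1. In synMuv B mutants, whose intestine turns on germline genes, loss of MES-4 or MRG-1 suppresses that expression. The gene mes-1 shares the maternal-effect-sterile name but encodes a membrane protein that acts in the asymmetric divisions of the early germ lineage, and it is not a chromatin gene.

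None of the 8 genes was called different between the genotypes. A DESeq2 adjusted p under 0.05 was listed for 0 of 8 by the authors' deposited table, and 0 had an unadjusted p under 0.05. Inverting the Benjamini-Hochberg adjustment places each unadjusted p between 2 bounds, and the smallest lower bound of the 8 was 0.274, for mes-6. Over all 9820 tested genes 10.3% were called, 3.92% as higher and 6.35% as lower in the double mutants. By the upper bound, 1763 of the 9820 had an unadjusted p under 0.05. The table gave 4 of the 8 a log2 fold change above 0 and 4 one below 0. Their median was 0.13, against -0.03 over all tested genes. The absence of calls has a limit of precision: among the 5958 tested genes whose mean normalized count lay within the range of the 8, the smallest absolute log2 fold change that was called was 0.86, and 7.08% were called. Only for mes-3 and met-1 did the 95% interval of the fold change, computed from the standard error that the p-value implies, leave out a 2-fold change in either direction. The deposited fold changes match a fit that draws them toward 0, so they and the intervals around them can understate a change. Whole-worm RNA does not tell fewer cells of a type from less RNA per cell.

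All 8 transcripts were present in sterile worms, at levels per length below the median of the tested genes. RPKM, a read count scaled to transcript length and library depth, puts genes of different length on 1 scale. In mes-1 worms the authors' deposited table gave an RPKM of 10.4 for mes-3, 9.76 for mrg-1, 5.79 for met-1, 4.78 for spr-5, 2.33 for mes-6, 2.32 for set-2, 1.84 for mes-2 and 1.44 for mes-4. The median of the 9820 tested genes was 12.1 in the same column and that of all 20422 genes was 1.95. In double mutants the authors' deposited table listed RPKMs of 9.85 for mrg-1, 9.15 for mes-3, 6.37 for spr-5, 5.50 for met-1, 3.69 for mes-6, 2.88 for mes-2, 2.81 for set-2 and 0.658 for mes-4. Thus mes-4 was lowest in both genotypes and stood at percentile 3.05 of the tested genes for its RPKM in mes-1, while mes-3, the highest there, stood at percentile 45.4. Among all genes of the table the same values stood at percentiles 46.9 and 73.1. The order changed between the genotypes only by swaps of neighbours: mrg-1 with mes-3, spr-5 with met-1, and mes-2 with set-2.

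**Figure D1:**
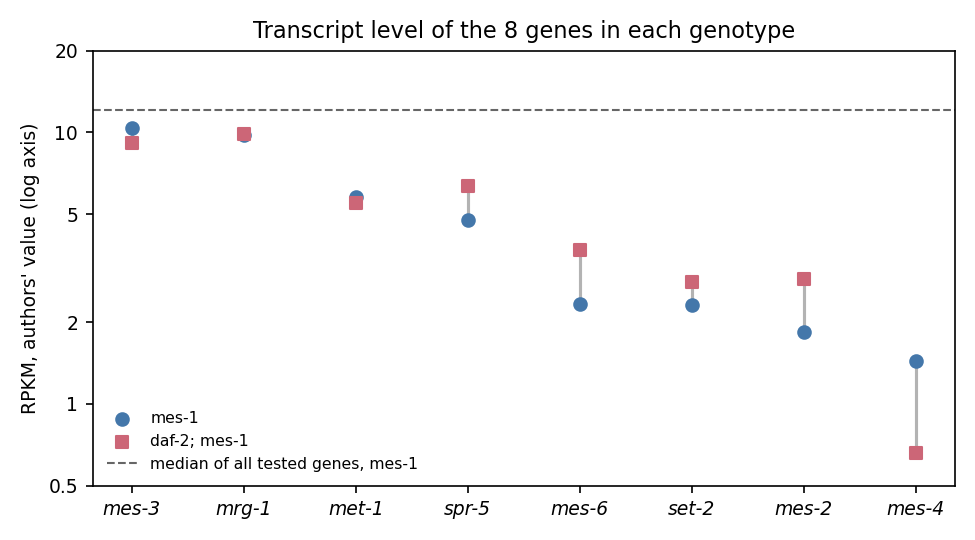
RPKM of each gene in mes-1 (circles) and double mutants (squares) on a log axis, 1 value per genotype as the authors gave it, with no replicate error. All values lie below the dashed line at 12.1, the median of all tested genes in mes-1, and mes-4 is lowest in both genotypes.

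The table holds no value for a single sample, but it prints its means with enough digits to recover whole reads in each library for many genes. Reads were recovered for 6 of the 8 genes, all but mes-3 and met-1, whose higher means allow too many sets of reads. The libraries are numbered here by depth within a genotype, library 1 being the deepest. These numbers are not the sample numbers of the labels. The size factors were 1.79, 0.859 and 0.826 for the mes-1 libraries and 1.38, 1.07 and 0.584 for the double-mutant libraries, so that the deepest library held 3.06 times the depth of the shallowest. Normalized reads are whole reads divided by these size factors. For mes-4 the mean alone fixed the reads. For the other 5 genes the reads were those that also matched the deposited fold change and p-value, within limits on scatter. Their ratios, the overlap of their groups and their permutation p-values are therefore not independent of the deposited comparison.

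The library called mes-1 library 1 stood apart in germ cell transcripts. The summed normalized reads of 15 germ cell markers, out of 20 on the list, were 257 in mes-1 library 1, 45.4 and 31.5 in the other mes-1 libraries, and 118, 41.2 and 24.0 in the double-mutant libraries 1 to 3. Of these markers 13 were highest in mes-1 library 1, and the other 2 were highest in double-mutant library 1. The number of markers without a read was 0, 3 and 7 in the mes-1 libraries and 0, 1 and 12 in the double-mutant libraries, in the same order. As a background, mes-1 library 1 was the highest library for 22.9% of 1484 genes with a mean of 5 to 10 normalized reads. That range matches the genes only in part. The means of the 15 markers ran from 2.47 to 12.1, and those of the 6 chromatin genes with recovered reads from 8.22 to 36.9. Several of the chromatin genes were also highest there, so their ratios are given with and without that library. That choice was made after the values were seen, and it leaves out a library of mes-1 only. Where mes-1 library 1 holds the highest mes-1 value, leaving it out can only raise the ratio. Double-mutant library 1, also the highest of its genotype in germ cell markers, was kept in these ratios. How much germ cell RNA or depth contributed to those values was not tested.

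The Polycomb genes mes-2 and mes-6 had higher means in the double mutants, within the spread of the libraries, and mes-3 had nearly the same level in both genotypes. For mes-2 (WBGene00003220, chromosome II, forward strand, 14383900 to 14388414), which encodes the catalytic subunit and is the worm counterpart of Enhancer of zeste, normalized reads were 24.6, 5.82 and 6.05 in the mes-1 libraries 1 to 3 and 22.4, 23.4 and 12.0 in the double-mutant libraries. These values stand for 44, 5 and 5 reads and for 31, 25 and 7 reads. The groups overlapped through mes-1 library 1 alone, which exceeded the mean of the other mes-1 libraries 4.15 times. The mean was 12.2 ± 10.8 (SD, n = 3) in mes-1 and 19.3 ± 6.32 (SD, n = 3) in the double mutants, a ratio of 1.58 (two-sided exact permutation p = 0.4, and 0.6 after Benjamini-Hochberg adjustment over the 6 genes). Without mes-1 library 1 the ratio was 3.24. With 3 libraries against 3, no such test can give a p below 0.1. In the authors' deposited table mes-2 had a log2 fold change of 0.49 (DESeq2 adjusted p of 0.799) and an implied 95% interval of the fold from 0.699 to 2.81.

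For mes-6 (WBGene00003224, chromosome IV, forward strand, 8511271 to 8514709), the worm counterpart of extra sex combs and EED, normalized reads were 10.1, 5.82 and 16.9 in the mes-1 libraries and 16.6, 18.7 and 15.4 in the double-mutant libraries. Here mes-1 library 3 was the highest of its genotype, the other mes-1 libraries lay below every double-mutant library, and the groups overlapped. The ratio of the means was 1.54 (two-sided exact permutation p = 0.3, adjusted 0.6, n = 3 per genotype), and 1.49 without mes-1 library 1. The authors' deposited table gave a log2 fold change of 0.53 (DESeq2 adjusted p of 0.739) and an implied 95% interval of the fold from 0.747 to 2.79. In the WBcel235 annotation 380 of the 1676 exon bases of mes-6 are shared with C09G4.4 on the same strand, a gene to which the authors' deposited table assigned a mean of 0. No exon of the other 7 genes overlapped another gene.

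The remaining subunit gene, mes-3 (WBGene00003221, chromosome I, forward strand, 4996840 to 5002351), was the most expressed of the complex. In the authors' deposited table its RPKM was 10.4 in mes-1 and 9.15 in the double mutants. Its log2 fold change there was -0.16 (DESeq2 adjusted p of 0.933), and the implied 95% interval of the fold ran from 0.580 to 1.39. The RPKM of mes-3 in mes-1 worms thus lay above those of its partners mes-2 and mes-6, at 1.84 and 2.33 in the authors' deposited table.

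The 8 genes' smallest transcript level and their most negative fold change both belonged to the H3K36 methyltransferase gene mes-4. For mes-4 (WBGene00003222, chromosome V, reverse strand, 13433040 to 13437533), normalized reads were 21.8, 9.32 and 1.21 in the mes-1 libraries and 7.95, 5.61 and 3.42 in the double-mutant libraries. The reads themselves were 39, 8 and 1, and 11, 6 and 2. The mes-1 libraries held the highest and the lowest value, and all double-mutant values lay between them. The mean was 10.8 ± 10.4 (SD, n = 3) in mes-1 and 5.66 ± 2.26 (SD, n = 3) in the double mutants, a ratio of 0.525 (two-sided exact permutation p = 0.6, adjusted 0.72). Without mes-1 library 1 the ratio was 1.08, but double-mutant library 1, the highest of its genotype, was kept. With library 1 of both genotypes set aside, the values were 9.32 and 1.21 in mes-1 and 5.61 and 3.42 in the double mutants. The value of mes-4 in mes-1 library 1 was 4.15 times the mean of the other mes-1 libraries, a ratio reached by 7.14% of the 1484 genes of similar abundance, whose median was 1.02. In the authors' deposited table mes-4 had a log2 fold change of -0.64 (DESeq2 adjusted p of 0.742) and an implied 95% interval of the fold from 0.288 to 1.43.

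The other H3K36 methyltransferase gene, met-1 (WBGene00016603, chromosome I, forward strand, 4254381 to 4264692), had the highest mean normalized count of the 8, at 78.4 in the authors' deposited table. Its RPKM there was 5.79 in mes-1 and 5.50 in the double mutants, so that per length it lay above mes-4 in both genotypes. The log2 fold change of met-1 was -0.07 in the authors' deposited table (DESeq2 adjusted p of 0.979), and the implied 95% interval of the fold ran from 0.603 to 1.51.

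The chromodomain gene mrg-1 (WBGene00003406, chromosome III, reverse strand, 12871037 to 12874554) had nearly equal means in the genotypes and a wide spread among the mes-1 libraries. Normalized reads of mrg-1 were 49.8, 26.8 and 6.05 in the mes-1 libraries and 33.2, 19.6 and 25.7 in the double-mutant libraries. As for mes-4, mes-1 libraries 1 and 3 were the extremes and enclosed every double-mutant value. The ratio of the means was 0.950 (two-sided exact permutation p = 0.9, adjusted 0.9, n = 3 per genotype), and 1.59 without mes-1 library 1. The authors' deposited table gave a log2 fold change of -0.09 (DESeq2 adjusted p of 0.979) and an implied 95% interval of the fold from 0.489 to 1.81, while its RPKM values of 9.76 and 9.85 differ in the other direction.

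Both H3K4 enzymes had somewhat higher means in the double mutants, again within the spread of the libraries. For set-2 (WBGene00004782, chromosome III, reverse strand, 4922391 to 4930170), normalized reads were 40.9, 16.3 and 21.8 in the mes-1 libraries and 33.2, 31.8 and 41.1 in the double-mutant libraries. Only mes-1 library 1 reached the double-mutant values. The ratio of the means was 1.34 (two-sided exact permutation p = 0.3, adjusted 0.6, n = 3 per genotype), and 1.86 without mes-1 library 1. The authors' deposited table gave a log2 fold change of 0.33 (DESeq2 adjusted p of 0.846) and an implied 95% interval of the fold from 0.728 to 2.17.

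For the demethylase gene spr-5 (WBGene00005010, chromosome I, forward strand, 13438046 to 13450207), normalized reads were 43.1, 31.4 and 19.4 in the mes-1 libraries and 53.5, 36.5 and 37.7 in the double-mutant libraries. The highest value came from double-mutant library 1, and the groups overlapped through mes-1 library 1. The ratio of the means was 1.36 (two-sided exact permutation p = 0.4, adjusted 0.6, n = 3 per genotype), and 1.67 without mes-1 library 1. In the authors' deposited table the log2 fold change of spr-5 was 0.38 (DESeq2 adjusted p of 0.768), and the implied 95% interval of the fold ran from 0.783 to 2.18.

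**Figure D2:**
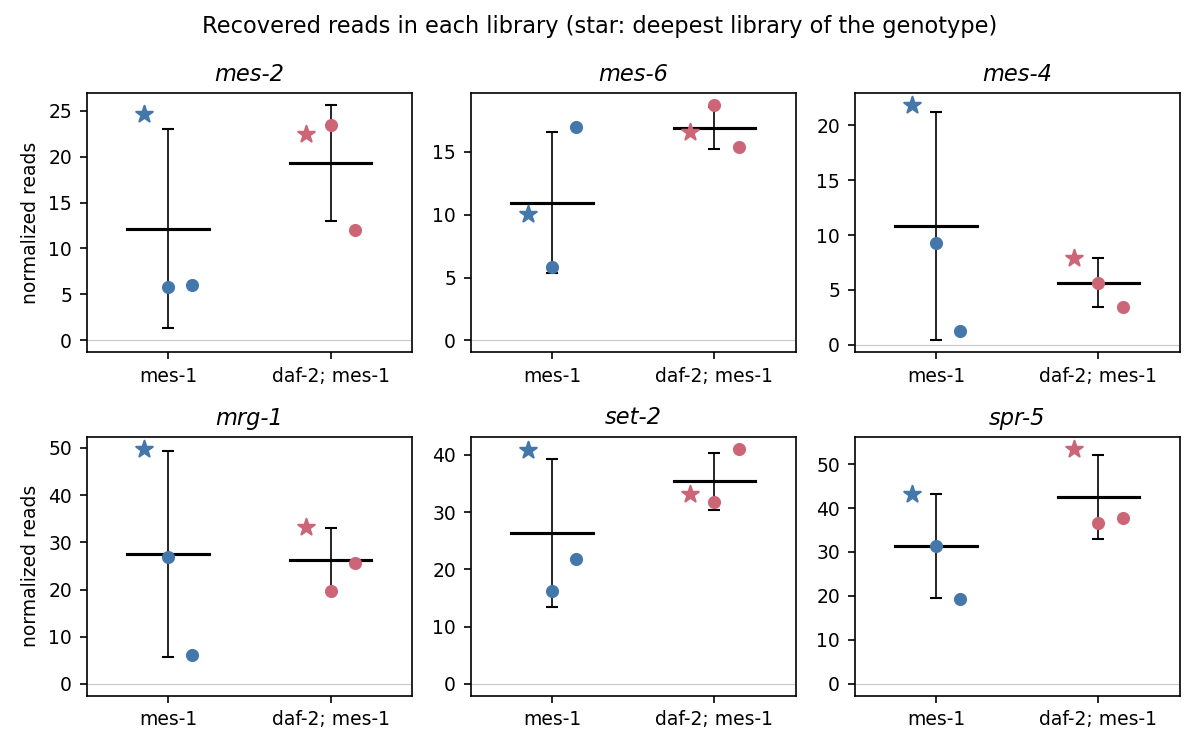
Normalized reads (whole reads divided by the size factor) of 6 genes in each recovered library, with the mean (bar) and SD (error bar) of 3 libraries per genotype and a star for the deepest library of each genotype. For mes-2, mes-4 and mrg-1 the star of mes-1 lies highest of all 6 libraries, and in every panel the groups overlap. For all but mes-4 the reads had to match the deposited p-value, so the overlap is not independent of it.

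The 6 genes with recovered reads varied more among mes-1 libraries than among double-mutant libraries. The coefficient of variation of normalized reads in mes-1 was 96.3% for mes-4, 88.7% for mes-2, 79.5% for mrg-1, 51.3% for mes-6, 49.0% for set-2 and 37.9% for spr-5. In the double mutants it was 40.0%, 32.8%, 26.0%, 9.89%, 14.1% and 22.3% for the same genes. These spreads rest on 3 libraries per genotype and were not tested against each other. For all but mes-4 the reads were chosen under limits on scatter. The share of all recovered genes with a larger spread in mes-1 was not taken. A trait of these genes thus cannot be told apart from a trait of the mes-1 libraries. The spreads also bear on the order of the levels. Per kilobase of annotated exon, mes-1 libraries held 18.3 ± 14.5 normalized reads (SD, n = 3) of mrg-1, 12.0 ± 4.55 of spr-5, 6.53 ± 3.35 of mes-6, 4.91 ± 4.35 of mes-2, 4.81 ± 2.35 of set-2 and 3.46 ± 3.33 of mes-4. The library values of every pair of neighbours in this order overlapped. In the double mutants, where the level was 10.1 ± 0.998 per kilobase for mes-6 and 1.81 ± 0.725 (SD, n = 3) for mes-4, no library of mes-4 reached the lowest value of any of the other 5 genes.

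**Figure D3:**
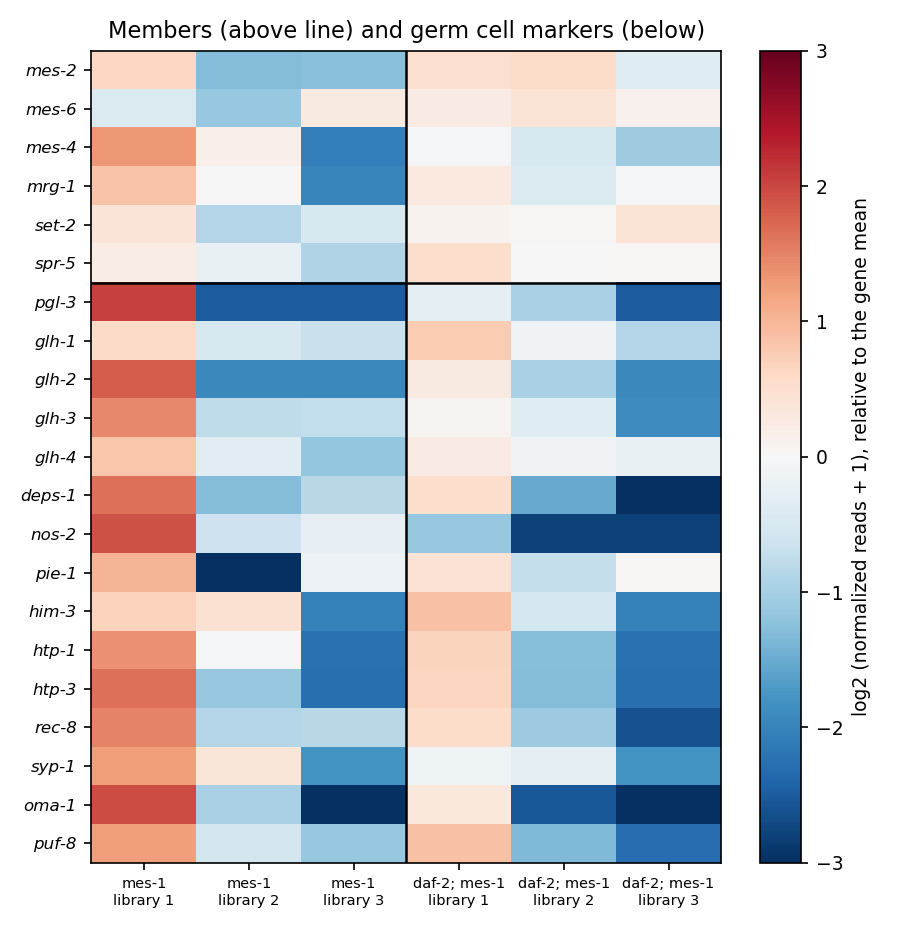
Normalized reads plus 1, as log2 relative to the gene's mean, for the 6 chromatin genes (above the line) and 15 germ cell markers (below) in the 6 recovered libraries, with red above and blue below the mean. The markers are reddest in mes-1 library 1, where 13 of 15 are highest, as are 3 of the 6 chromatin genes.

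Genes that act with or against the 8 were examined by lists of complexes and opposing enzymes. Of 56 such genes 52 had an adjusted p, and 0 of 52 were called in the authors' deposited table, where all had an absolute log2 fold change under 1. An unadjusted p under 0.05, by either bound, was reached by 1 of them, set-17, a SET domain H3K4 methyltransferase gene whose log2 fold change was 0.76 at a DESeq2 adjusted p of 0.162, per the authors' deposited table. It is named because it was the only such gene, a choice made after its value was seen. Over all 9820 tested genes, 1763 had an unadjusted p under 0.05 by the upper bound. The median log2 fold change of the 52 was -0.04.

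Enzymes that remove the Polycomb mark did not pass the test: 0 of 3 tested H3K27 demethylase genes were called, with a median of -0.08. The authors' deposited table gave log2 fold changes of 0.05 for jmjd-3.1, -0.08 for utx-1 and -0.66 for jmjd-3.3. Among the H3K36 partners, 0 of 2 were called: the authors' deposited table gave lin-59, the worm counterpart of ASH1, a log2 fold change of 0.39 (adjusted p of 0.378, DESeq2), and the demethylase gene jmjd-2 one of -0.20. Of the H3K4 methyltransferase genes and partners of SET-2, 0 of 10 tested were called, with a median of -0.02. The 3 of these with the highest mean normalized count were set-16, dpy-30 and ash-2, whose log2 fold changes were 0.26, -0.16 and 0.02 according to the authors' deposited table. Of the H3K4 demethylases and partners of SPR-5, 0 of 5 were called, with a median of -0.08, and the authors' deposited table gave -0.12 for rbr-2, -0.08 for amx-1 and 0.28 for spr-1, the CoREST gene.

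Of the genes for H3K9 methylation and its readers, 0 of 10 tested were called, with a median of -0.05. Those with the highest mean normalized count were met-2, set-25 and set-6, whose log2 fold changes were -0.20, -0.19 and -0.48 according to the authors' deposited table. Of 10 genes of the acetylation and deacetylation complexes related to MRG-1, 0 were called, the median was 0.03, and the authors' deposited table gave 0.35 for epc-1, 0.11 for ssl-1 and -0.01 for trr-1. The synMuv B repressors, which keep germline genes off in somatic cells, had 0 of 15 genes called, 11 of 15 with a log2 fold change below 0, and a median of -0.17. Over all 9820 tested genes, 5154 had a log2 fold change below 0. Some synMuv B genes, met-2 among them, are also on the H3K9 list. The synMuv B genes with the highest mean normalized count, let-418, lin-13 and mep-1, showed log2 fold changes of -0.12, -0.18 and -0.09 according to the authors' deposited table.

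**Figure D4:**
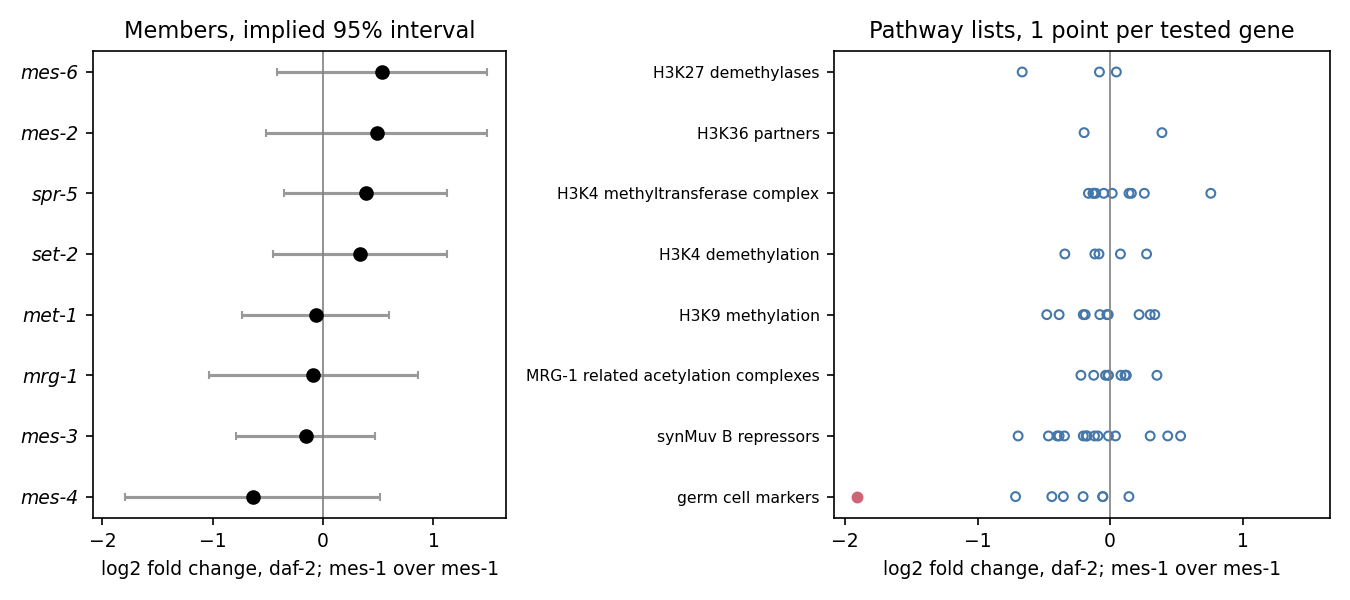
Log2 fold change of the double mutants over mes-1 from the authors' deposited table. Left: the 8 genes with the implied 95% interval, each of which takes in 0. Right: each tested gene of the pathway lists and of the germ cell markers, with the 1 called gene, nos-2 at -1.91, filled.

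Germ cell markers were low but present in these worms, and lower in the double-mutant column. All 20 had a smaller RPKM in the double mutants, with sums of 67.1 in mes-1 and 26.3 in the double mutants, per the authors' deposited table. These are single values per genotype with no replicate spread, and the share over all genes was not taken. The largest difference, from 15.3 to 2.70, was that of cbd-1, which had no adjusted p. Of the 8 that were tested, 1 was called, nos-2, a Nanos family gene. Its log2 fold change was -1.91 at a DESeq2 adjusted p of 0.0262, per the authors' deposited table. Over all 9820 tested genes 10.3% were called, 6.35% as lower, so this 1 call is not read as a result about the list. The median of the 8 was -0.28. That median is of deposited fold changes, which match a fit that draws values toward 0, whereas the RPKM sums are not drawn in. Normalized reads of nos-2 were 25.2, 3.49 and 4.84 in the mes-1 libraries and 2.17, 0 and 0 in the double-mutant libraries, and its exons overlap another gene. The summed normalized reads of the 15 markers with recovered reads were 111 ± 126 (SD, n = 3) in mes-1 and 61.0 ± 49.9 (SD, n = 3) in the double mutants, a difference smaller than the SD in mes-1 (two-sided exact permutation p = 0.6). Without mes-1 library 1 the mes-1 mean was 38.5, below that of the double mutants, which still took in their own deepest library at 118. With library 1 of both genotypes set aside, the sums were 45.4 and 31.5 in mes-1 and 41.2 and 24.0 in the double mutants. The direction of the difference thus depended on which libraries were kept. Of the 32 listed chromatin genes with recovered reads and a mean of at least 5, 18 were highest in mes-1 library 1, and the median ratio of that library to the other mes-1 libraries was 1.54. For the 1484 genes with a mean of 5 to 10 these were 22.9% and 1.02, but many of the 32 had higher means. The share over all genes of their abundance was not taken, so the count is not read as a trait of chromatin genes. Among somatic markers 2 of 9 tested genes were called, both higher in the double mutants, and the list median was 0.15. Of all tested genes 3.92% were called as higher, and a count of 2 is too small to set against that share. The authors' deposited table gave myo-3, a muscle myosin gene, a log2 fold change of 0.93 (DESeq2 adjusted p of 0.000339) and snb-1, the synaptobrevin gene, one of 0.64 (DESeq2 adjusted p of 0.0367). The 3 markers with the highest mean normalized count, which is not scaled to length, were unc-54, another muscle myosin gene, the intestinal esterase gene ges-1, and myo-3. For unc-54 the authors' deposited table had 0.15 (DESeq2 adjusted p of 0.908), and for ges-1 it had 0.37 (DESeq2 adjusted p of 0.574). The gonadal sheath gene inx-8 was at -0.53 (DESeq2 adjusted p of 0.196) in that same authors' deposited table, the only uncalled somatic marker with an unadjusted p under 0.05. Of the epidermal markers, the authors' deposited table put elt-3 at a mean normalized count of 70.1 and dpy-7 at one of 0.285.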

How the data were processed

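Per the labels' protocols, ribosomal RNA was removed with a kit for human, mouse and rat, and libraries came from a kit without strand marking. The submitters' processing notes name TopHat2 and DESeq2, and the file headers name Cuffdiff2. Genome build, annotation and tool versions were not given in the sources used here, and positions are the table's own. The deposited signal values are mean normalized counts over 6 samples, which the authors took from DESeq2, as the file headers say. The deposited log2 fold change is daf-2; mes-1 over mes-1, with no absolute value above 5. It matches a shrunken value, one that the fit draws toward 0, most for genes with few or scattered reads. A fit with such shrinkage had a prior SD of 1.26 (log2) and a free dispersion for each gene. It matched the test statistic implied by the p-value within 0.6% for 99.2% of 1066 genes. The deposited p-value column is Benjamini-Hochberg adjusted by DESeq2, and the authors' RPKM column holds 1 Cuffdiff2 value per genotype, per the file headers. The planned count test needs sample columns, which the table lacks, so calls are the authors' own at an adjusted p under 0.05.

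The 8 genes and all lists were chosen with earlier results of these data known. By rule, named genes are the 8, every called list gene and, as examples, the 3 of a list with the highest mean normalized count. That count is not scaled to length, and RPKM would rank some lists otherwise. Named outside it, after their values were seen, are set-17, lin-53, inx-8, elt-3, dpy-7 and the germ cell markers pgl-1, gld-1, oma-2, rme-2 and cbd-1. No gene was named for a like pattern, since the table gives no sample values.

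Total reads per library are unknown. Whole reads were recovered from the digits of the means, each of which adds up reads from 6 libraries, weighted by 6 fixed steps. A step belongs to the genotype in whose RPKM column its genes appear. Of 8228 genes with a mean above 0 and under 10, 8227 had exactly 1 set of reads. At larger means, sets were kept if they matched the RPKM ratio within 0.6 (log2), the deposited fold change and, within 0.6%, the p-value, with a dispersion of at most 0.818. Their Pearson statistic, a measure of scatter around the genotype means, also had to be at most 7.98. Spreads among the libraries of genes resolved this way were thus bounded by the selection. A single remaining set among at most 700 candidates was accepted. In a check on genes whose reads the mean alone fixed, 95 of 100, 83 of 100 and 39 of 100 were resolved at median candidates of 7, 139 and 692, all correctly. The true set was kept for 95 of 100 each time. These genes were drawn from the 1066 that set the fit and its limits, so the check was not independent of them. Their means lay under 10, against 13.9 to 36.9 for the 5 chromatin genes resolved by fold change and p-value. The dispersion limit was added because mrg-1 otherwise had several sets, and it leaves out the most variable genes, among them pgl-1 and gld-1. Recovered ratios and RPKM ratios had r = 0.979 across 1735 genes, which are not independent replicates. Recovery and p-value bounds were tested on simulated data. Annotation WBcel235 was used only for exon overlap and exon length. Genotypes were compared by exact permutation of the mean difference (scipy 1.17.1). Other settings were thresholds of 0.01 and 0.1, a minimum fold, RPKM ratios with pseudocounts, centring, overlapping genes left out, and each recovered library left out.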

Additional observations from a re-analysis of the deposited data

How the results depend on the processing

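No paired analysis was possible because the table holds no sample columns and the recovered libraries carry no sample numbers. For the same reason another normalization, the fit without a filter and refits without a sample were not run. At an adjusted p threshold of 0.1 the count of called genes was still 0 among the 8 and 0 among the 52 other tested chromatin genes. A threshold of 0.01, a minimum fold and leaving out overlapping genes cannot raise a count of 0 and say nothing about its stability. The 1 called germ cell marker, nos-2, gave way to 0 at a threshold of 0.01 and to 0 when genes with overlapping exons were left out, and the 2 called somatic markers became 1 at a threshold of 0.01. The median log2 fold change of the 8 was 0.13, 0.16 when centred on all genes, and 0.14, 0.11 and 0.05 as an RPKM ratio with pseudocounts of 0.1, 1 and 5. All 24 RPKM-based values of single genes lay within 1 implied standard error of the deposited fold change. Each recovered library was left out in turn, an alternative chosen after seeing the data. Over the 36 values, 4 moved by more than the implied standard error, those of mes-2, mes-4, mrg-1 and set-2 without mes-1 library 1. The log2 ratio ranged from 0.33 to 1.70 for mes-2, 0.32 to 1.09 for mes-6, -1.46 to 0.11 for mes-4, -0.55 to 0.67 for mrg-1, 0.18 to 0.89 for set-2 and 0.19 to 0.74 for spr-5. The mrg-1 ratio also changed sign without daf-2; mes-1 library 2, to 0.10. The cause was not tested. Depth limits the low genes most: mes-4 had 1 read in mes-1 library 3.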

Other observations

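The table gave no adjusted p to 3 germ cell markers whose means lay above the lowest mean tested, oma-2, rme-2 and cbd-1. The authors' deposited table listed RPKM values of 5.91 and 2.63 for oma-2, 6.60 and 0.975 for rme-2, and 15.3 and 2.70 for cbd-1, the first value of each pair being that of mes-1 worms.

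The synMuv B gene lin-53, which encodes a histone-binding WD40 protein found in several chromatin complexes, was examined after its value was seen, since it had the most negative log2 fold change of its list, -0.69 in the authors' deposited table (DESeq2 adjusted p of 0.339). Its normalized reads were 66.1, 30.3 and 43.6 in the mes-1 libraries and 31.8, 28.1 and 22.3 in the daf-2; mes-1 libraries. The value of mes-1 library 1 was again the highest, and the groups overlapped.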
